A study of Mus musculus with 20 samples.

Results

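The Myc gene and the long stretch of chromosome 15 downstream of it, which carries the distal blood enhancer cluster, were examined for H3K27ac, H3K4me1, and H3K4me3 in lineage-negative (Lin-) bone marrow cells of 4 genotypes of mice. Every deposited peak from 50000 bp upstream of Myc to 2000000 bp downstream of it was taken, a window of 2.05 Mb (mm10, chr15:61935391-63990374). The window held 428 of the 591292 peaks in the 12 lists. H3K27ac peaks in it numbered 17 in WT, 8 in Ep300Δ/Δ, 14 in Tet2-/-, and 7 in Ep300Δ/ΔTet2-/- cells. The whole H3K27ac lists held 29659, 22727, 24539, and 18327 peaks in that order. With lists cut to equal size the window held 5, 6, 8, and 7, so that WT no longer had the most. The Myc promoter and 3 acetylated regions of the distal cluster had a peak in all 4 genotypes.

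Of the 20 samples in the series, 12 had a peak list, with 1 library for each genotype and mark; the 8 libraries for H3 and H3K27me3 were not analysed here. All mice were C57BL/6 and carried floxed Ep300 alleles, and all received poly(I:C), an inducer of interferon, as young adults. WT mice were Ep300 fl/fl without Cre, and Ep300Δ/Δ mice were Mx1-Cre;Ep300 fl/fl. Tet2-/- mice were Ep300 fl/fl;Tet2-/- without Cre, with Tet2 lost from the germline, and Ep300Δ/ΔTet2-/- mice were Mx1-Cre;Ep300 fl/fl;Tet2-/-. Mx1-Cre is switched on by interferon and is not confined to blood cells, and the number of mice behind each library is not given in the sources used here. Lin- cells are what remains of bone marrow once cells with surface markers of mature lineages are removed, a mixture rich in stem and progenitor cells. In these mixtures a change in the share of a cell type and a change within a cell type cannot be told apart. All 9 genes of a progenitor list had H3K4me3 at a promoter in all 4 genotypes, and 9, 9, 8, and 8 of them had H3K27ac in WT, Ep300Δ/Δ, Tet2-/-, and Ep300Δ/ΔTet2-/- cells. Over all 21951 protein-coding genes, 60.1% had promoter H3K4me3 in all 4 genotypes, and 47.3%, 44.9%, 46.4%, and 43.1% had promoter H3K27ac in that order. Of 9 genes of mature lineages, 3 had promoter H3K4me3 in each genotype and 2, 1, 1, and 0 had promoter H3K27ac, in the same order; their part in the differences between genotypes was not tested.

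MYC is a transcription factor that drives growth, ribosome production, and division, and stem and progenitor cells of the blood depend on its dose. In blood cells its gene is switched on by a cluster of enhancers that lies far downstream, past the long noncoding gene Pvt1, and that is assembled from separate modules used by stem cells, progenitors, and myeloid cells. p300, the product of Ep300, is an acetyltransferase that places H3K27ac at enhancers and promoters, and TET2 oxidizes methylated cytosine. H3K27ac marks active enhancers and promoters, H3K4me1 marks enhancers whether or not they are active, and H3K4me3 marks promoters. The stretch of 0.25 Mb that begins 1.6 Mb downstream of the Myc start (chr15:63585391-63835391) is called the distal segment here. Its regions are named by the distance of their summit from the Myc start in kb, so that +1719.0 lies 1719.0 kb downstream.

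The 4 H3K27ac lists merged into 13 acetylated regions in the distal segment, and their summit sequences are shown for 9 of them, because these are the elements whose acetylation differed or did not differ between genotypes. Each line gives the summit base with 100 bp on both sides, read from the plus strand of the RefSeq sequence of GRCm38, the assembly behind mm10. Capitals mark matches on either strand to 7 consensus motifs of blood transcription factors: TGTGGT read by RUNX proteins, AGATAA read by GATA proteins, AGGAAG read by ETS proteins, TTNCNNAA read by C/EBP proteins, AACNGNC read by MYB proteins, TGACAG read by MEIS proteins, and TGANTCA read by AP-1 proteins, where N is any base. In 1 of the 9 sequences, +1662.9, matches to different motifs overlapped. The first 3 regions had H3K27ac in all 4 genotypes.
+1719.0 (chr15:63704269-63704469): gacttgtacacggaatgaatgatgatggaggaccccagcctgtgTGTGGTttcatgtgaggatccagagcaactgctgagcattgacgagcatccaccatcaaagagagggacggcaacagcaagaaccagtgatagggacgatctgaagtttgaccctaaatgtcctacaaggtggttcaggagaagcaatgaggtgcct
+1672.8 (chr15:63658128-63658328): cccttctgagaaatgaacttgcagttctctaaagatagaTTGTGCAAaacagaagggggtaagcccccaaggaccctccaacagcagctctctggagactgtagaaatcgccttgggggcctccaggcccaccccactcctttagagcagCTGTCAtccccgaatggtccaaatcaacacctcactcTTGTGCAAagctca
+1663.4 (chr15:63648665-63648865): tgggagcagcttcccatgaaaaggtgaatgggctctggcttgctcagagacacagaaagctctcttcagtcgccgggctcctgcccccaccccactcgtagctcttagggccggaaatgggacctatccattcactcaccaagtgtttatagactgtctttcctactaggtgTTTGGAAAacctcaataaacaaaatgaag
The next 4 had H3K27ac in WT cells and in neither Ep300-deleted genotype.
+1720.2 (chr15:63705510-63705710): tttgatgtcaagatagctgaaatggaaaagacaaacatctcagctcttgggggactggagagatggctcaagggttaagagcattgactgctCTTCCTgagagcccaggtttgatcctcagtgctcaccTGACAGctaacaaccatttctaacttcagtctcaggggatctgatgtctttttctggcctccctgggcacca
+1735.6 (chr15:63720911-63721111): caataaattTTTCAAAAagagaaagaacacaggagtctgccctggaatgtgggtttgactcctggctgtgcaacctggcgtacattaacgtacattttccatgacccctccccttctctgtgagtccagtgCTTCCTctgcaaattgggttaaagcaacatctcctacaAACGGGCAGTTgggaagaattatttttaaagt
+1734.3 (chr15:63719583-63719783): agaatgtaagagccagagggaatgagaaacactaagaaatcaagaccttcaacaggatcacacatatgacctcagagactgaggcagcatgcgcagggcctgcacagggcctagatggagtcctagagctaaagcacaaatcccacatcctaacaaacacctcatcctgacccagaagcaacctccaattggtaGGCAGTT
+1751.3 (chr15:63736625-63736825): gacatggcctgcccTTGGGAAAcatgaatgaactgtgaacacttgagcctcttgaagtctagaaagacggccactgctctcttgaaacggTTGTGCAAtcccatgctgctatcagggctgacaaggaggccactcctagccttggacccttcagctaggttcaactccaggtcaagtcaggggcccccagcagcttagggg
The last 2 had H3K27ac in Tet2-/- cells only, so their windows were centered on the Tet2-/- summit.
+1662.9 (chr15:63648188-63648388): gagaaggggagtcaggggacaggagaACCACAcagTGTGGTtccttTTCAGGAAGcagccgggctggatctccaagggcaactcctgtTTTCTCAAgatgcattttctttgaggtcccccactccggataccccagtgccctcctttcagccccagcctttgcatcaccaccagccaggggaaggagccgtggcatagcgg
+1718.1 (chr15:63703431-63703631): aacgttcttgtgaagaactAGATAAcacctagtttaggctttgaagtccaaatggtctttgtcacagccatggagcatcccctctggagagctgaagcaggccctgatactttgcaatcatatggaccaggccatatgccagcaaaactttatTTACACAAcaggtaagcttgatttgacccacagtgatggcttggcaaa

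The C/EBP letters were the most frequent of the 7 motifs in the distal segment. They were present in 8 of the 13 summit windows (+1662.9, +1663.4, +1672.8, +1673.6, +1693.4, +1718.1, +1735.6, and +1751.3), and in 28.7% of 10830 windows of the same length at WT H3K27ac summits outside promoters. ETS letters were in 4 of the 13 windows against 29.4% of all windows, MYB letters in 3 against 26.3%, RUNX letters in 2 against 16.6%, MEIS letters in 2 against 17.2%, and GATA letters in 2 against 7.13%. AP-1 letters were in 0 of the 13 windows and in 6.13% of all windows. The 13 windows are not fully matched to that set. Regions +1734.3, +1735.6, and +1751.3 overlap promoters, and +1662.5, +1662.9, and +1718.1 have no WT peak and were centered on the summit of another genotype. Of the 3 regions acetylated in all 4 genotypes, +1719.0 held a RUNX match, +1672.8 held C/EBP and MEIS matches, and +1663.4 held a C/EBP match. A match shows only that these letters lie near the summit, and their absence says nothing about binding.

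Peaks gathered around Myc and Pvt1 and in the distal segment, with few between them. Pvt1 (ENSMUSG00000097039.8, chr15:62037986-62378096) and its approach held 5, 1, 4, and 2 H3K27ac peaks in WT, Ep300Δ/Δ, Tet2-/-, and Ep300Δ/ΔTet2-/- cells, and the distal segment held 10, 5, 8, and 3. All 4 H3K27ac peaks of the window with a q over 0.05, which is the authors' stated threshold, lay in the Pvt1 segment, and without them it held 2, 0, 4, and 2. In the 1.21 Mb that separates the 2 segments no H3K27ac peak was listed in any genotype. H3K4me1 was far denser, with 93, 92, 86, and 84 peaks in the window, of which 42, 45, 43, and 44 lay in the distal segment. At a -log10 q of 5 or more the window held 52, 34, 63, and 33 H3K4me1 peaks and the distal segment 26, 21, 38, and 24, so that Tet2-/- then had the most. H3K4me3 was sparse, with 6, 7, 7, and 7 peaks in the window. Of 32 annotated genes that overlap the window, 15 had a peak of any mark near a start or in the gene body. Each of 3 enhancers annotated in RefSeq between Pvt1 and the distal segment for activity in embryonic neural tube, heart, and limb had 0 of the 12 lists with a peak.

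**Figure D1:**
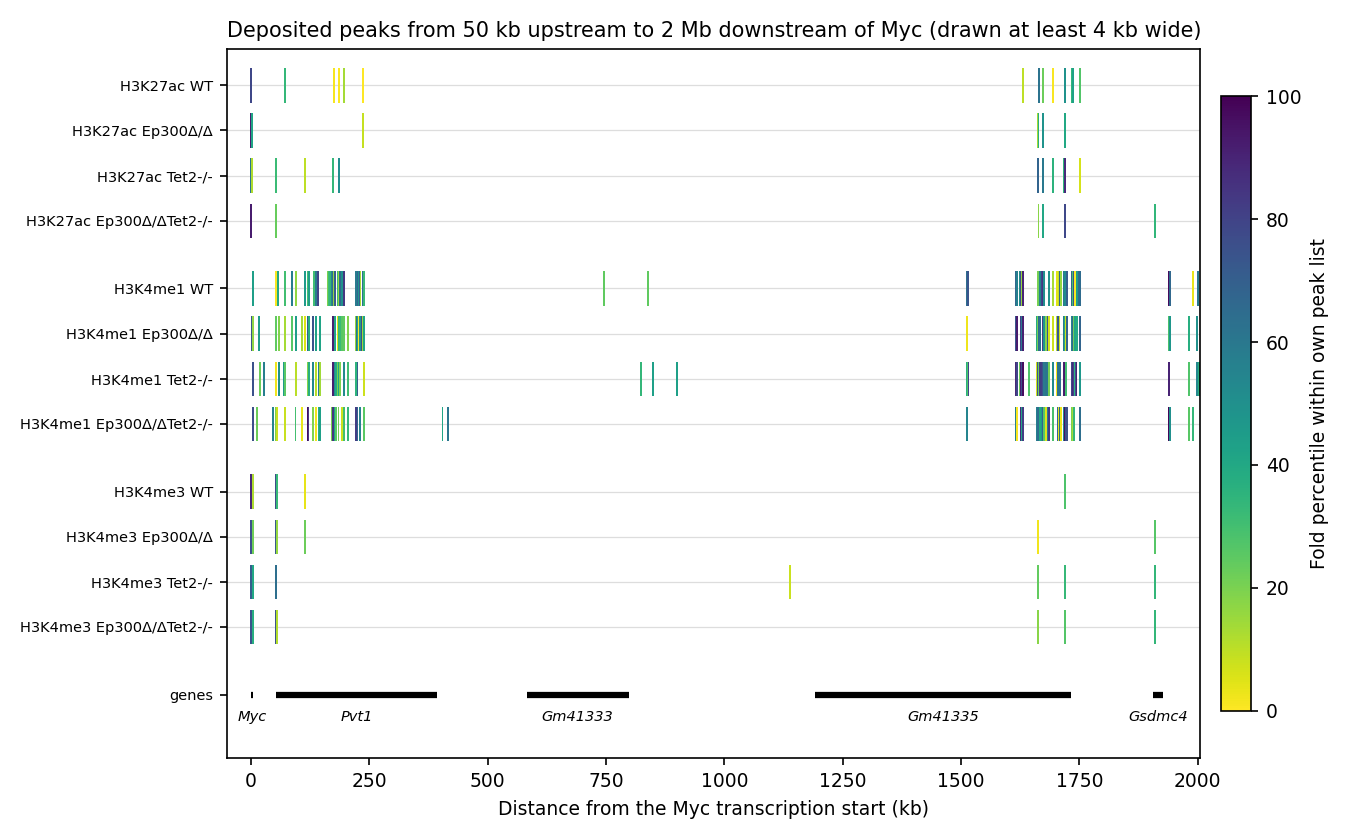
Peaks of the 12 lists along the window, by mark and genotype, against distance from the Myc transcription start in kb; each bar is a peak, widened to at least 4 kb so that it can be seen, and its color gives the percentile of its fold enrichment within its own list. H3K27ac and H3K4me1 bars stand over Myc, Pvt1, and the distal segment, and the 1.21 Mb between holds no H3K27ac bar.

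For a measure of strength, the fold enrichment over the H3 library was turned into a percentile among all peaks of the same list, because folds are not comparable between libraries as amounts. A percentile also moves with the length of the list, since a list with fewer weak peaks gives every other peak a lower percentile, so ranks counted from the top of each list are given for the H3K27ac differences after Ep300 deletion. Since each genotype and mark had 1 library, differences between genotypes carry no replicate error and were not tested. The lists hold no read counts, so the depth behind each peak is unknown, and a region without a listed peak was below the call in that library rather than shown to lack the mark. The 4 H3K27ac lists ranged from 18327 peaks in Ep300Δ/ΔTet2-/- to 29659 in WT cells.

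At the start of Myc (ENSMUSG00000022346.15, plus strand, chr15:61985391-61990374) H3K27ac was listed in every genotype, over chr15:61984159-61986981. Its fold enrichment was 12.7 in WT, 18.2 in Ep300Δ/Δ, 8.25 in Tet2-/-, and 21.9 in Ep300Δ/ΔTet2-/- cells. Within their own lists these peaks stood at percentiles 78.6, 92.2, 62.3, and 92.5, so the Myc promoter ranked higher in both Ep300-deleted lists than in both lists with intact Ep300. From WT to Ep300Δ/Δ the percentile differed by 13.6 points, whereas over 13645 promoter regions with a peak in both lists the median difference was -4.62 points and 11.6% differed by as much or more upward. From Tet2-/- to Ep300Δ/ΔTet2-/- the difference was 30.2 points, against a median of -5.31 over 11887 promoter regions, of which 3.96% differed by as much or more upward. Counted from the top of its list, the peak also stood nearer the top after Ep300 deletion on both backgrounds, where 19% and 7.45% of these promoter regions moved up by as many ranks or more. By rank, promoter regions as a whole also moved slightly nearer the top, unlike their percentiles. Their median changes were -213 and -265.5 ranks, where a negative value is nearer the top, and 46.8% and 45.9% of them stood further from it. The acetylated stretch at the start measured 2484, 2759, 2810, and 2782 bp in the same order of genotypes. Inside Myc, a peak of 400 bp was listed 2.25 kb downstream of the start only in Tet2-/- cells, and one of 276 bp 2.86 kb downstream only in Ep300Δ/Δ cells.

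H3K4me3 covered the Myc start and most of the gene in all 4 genotypes, over 5034 bp in WT, 5890 bp in Ep300Δ/Δ, 5912 bp in Tet2-/-, and 5761 bp in Ep300Δ/ΔTet2-/- cells. Its percentile was 88.8, 75.5, 70.3, and 74.3, highest in WT, an order unlike that of H3K27ac at the same promoter. The start of Pvt1 also had H3K4me3 in all 4 genotypes, at percentiles 76.7, 72.0, 63.8, and 74.1. H3K27ac at the Pvt1 start (chr15:62037613-62038618) was listed only in the lists without Tet2, at percentile 31.7 in Tet2-/- and 23.2 in Ep300Δ/ΔTet2-/- cells, and the stronger or only peak of each list had a -log10 q of 5 or more (10.8 and 7.10). By rank from the top the order was the other way, 16741.5 of 24539 peaks in Tet2-/- and 14066 of 18327 in Ep300Δ/ΔTet2-/- cells. A further peak there in Ep300Δ/ΔTet2-/- cells had a -log10 q of 2.56.

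In the distal segment, 3 of the 13 acetylated regions (23.1%) had a peak in all 4 genotypes, against 35.5% of all 35252 H3K27ac regions of the genome. All 3 lay among the 10 distal regions outside promoters, and 14.4% of the 14280 such regions of the genome were in all 4 lists. Of the other 10 distal regions 2 had one in WT and Tet2-/- cells, and 8 had one in a single list. Of those 8, 5 were in WT, 2 in Tet2-/-, 1 in Ep300Δ/Δ, and 0 in Ep300Δ/ΔTet2-/- cells. Thus 9 of the 13 (69.2%) were acetylated only where Ep300 was intact, and 1 (7.69%) only where it was deleted; over all H3K27ac regions of the genome these shares were 37.1% and 7.90%. Outside promoters 6 of 10 and 1 of 10 were in these classes, close to the 55.4% and 10.1% of the genome. With lists of equal size, 2 regions (+1662.9 and +1720.2) were listed only where Ep300 was intact, and 8 of the 13 were in no list. Sequence covered by H3K27ac in the segment came to 6.33, 2.21, 4.30, and 2.16 kb in WT, Ep300Δ/Δ, Tet2-/-, and Ep300Δ/ΔTet2-/- cells. Regions +1631.4 to +1720.2 lie in introns of the long noncoding gene Gm41335. Regions +1734.3 and +1735.6 lie in an intron of 4930449C09Rik, within 3000 bp of starts of both genes, and +1751.3 overlaps an exon of 4930449C09Rik near one of its starts.

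**Figure D2:**
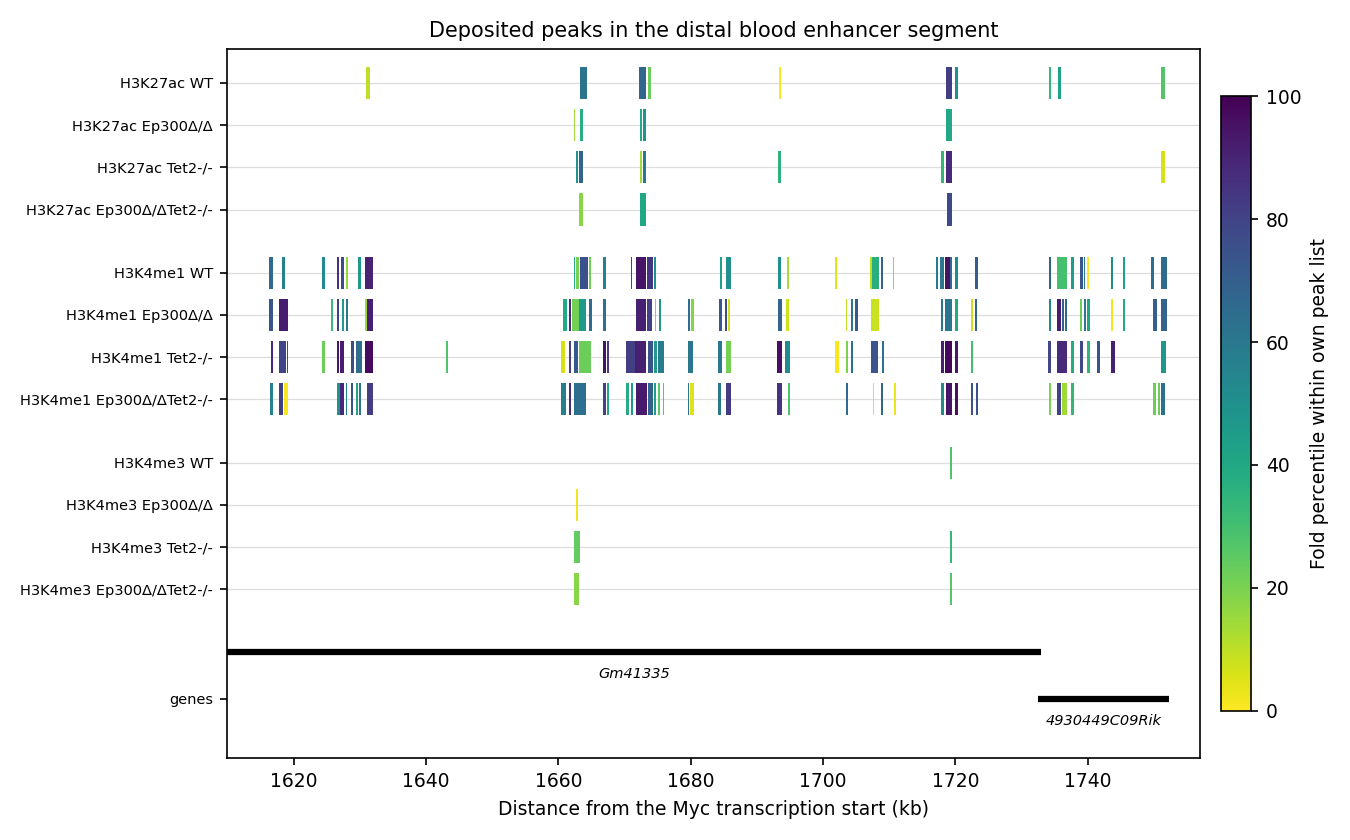
Peaks of the 12 lists over the stretch of the distal segment that holds its H3K27ac regions, by mark and genotype, against distance from the Myc transcription start in kb; each bar is a peak, widened to at least 0.25 kb, colored by its fold percentile within its own list. The bars at +1663.4, +1672.8, and +1719.0 kb occur in all 4 H3K27ac rows, and H3K4me1 bars lie under all 13 acetylated regions in every genotype.

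Among the distal regions acetylated in all 4 genotypes, +1719.0 (chr15:63703927-63704929) ranked highest in WT, Tet2-/-, and Ep300Δ/ΔTet2-/- cells, and +1672.8 in Ep300Δ/Δ cells. The fold at +1719.0 was 14.4 in WT, 5.12 in Ep300Δ/Δ, 17.3 in Tet2-/-, and 12.6 in Ep300Δ/ΔTet2-/- cells, at percentiles 82.4, 40.2, 88.1, and 78.5. The Ep300Δ/Δ library thus stood well below the other 3 at this region. Region +1672.8 (chr15:63657576-63658703) had folds of 9.32, 5.80, 7.79, and 6.07 and percentiles of 67.1, 48.6, 59.6, and 40.5. At +1663.4 (chr15:63648510-63649661) the folds were 8.37, 4.90, 9.40, and 4.40 and the percentiles 61.9, 36.9, 68.1, and 17.9. In all 3 regions the percentile was lower after Ep300 deletion on both backgrounds, whereas that of the Myc promoter was higher. The differences from WT to Ep300Δ/Δ were -25.1 points at +1663.4, -18.5 at +1672.8, and -42.2 at +1719.0, where 73.4% of 4029 regions outside promoters with a peak in both lists ranked lower and their median difference was -13.4. From Tet2-/- to Ep300Δ/ΔTet2-/- they were -50.2, -19.1, and -9.62 points, where 64.8% of 2838 such regions ranked lower and the median was -7.62. A lower percentile was therefore what most retained regions outside promoters had, and +1663.4 on the Tet2-null background was among the 5.29% that differed most in that direction. Counted from the top, all 3 regions also stood further down after Ep300 deletion on both backgrounds, but 52.3% of retained regions outside promoters did so from WT to Ep300Δ/Δ and 40.7% from Tet2-/- to Ep300Δ/ΔTet2-/-. On the Tet2-null background the rank differed little at +1672.8, from 9910 of 24539 peaks to 10890 of 18327, and at +1719.0, from 2923 to 3943.5. At +1663.4 it went from 7824 to 15014.5.

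**Figure D3:**
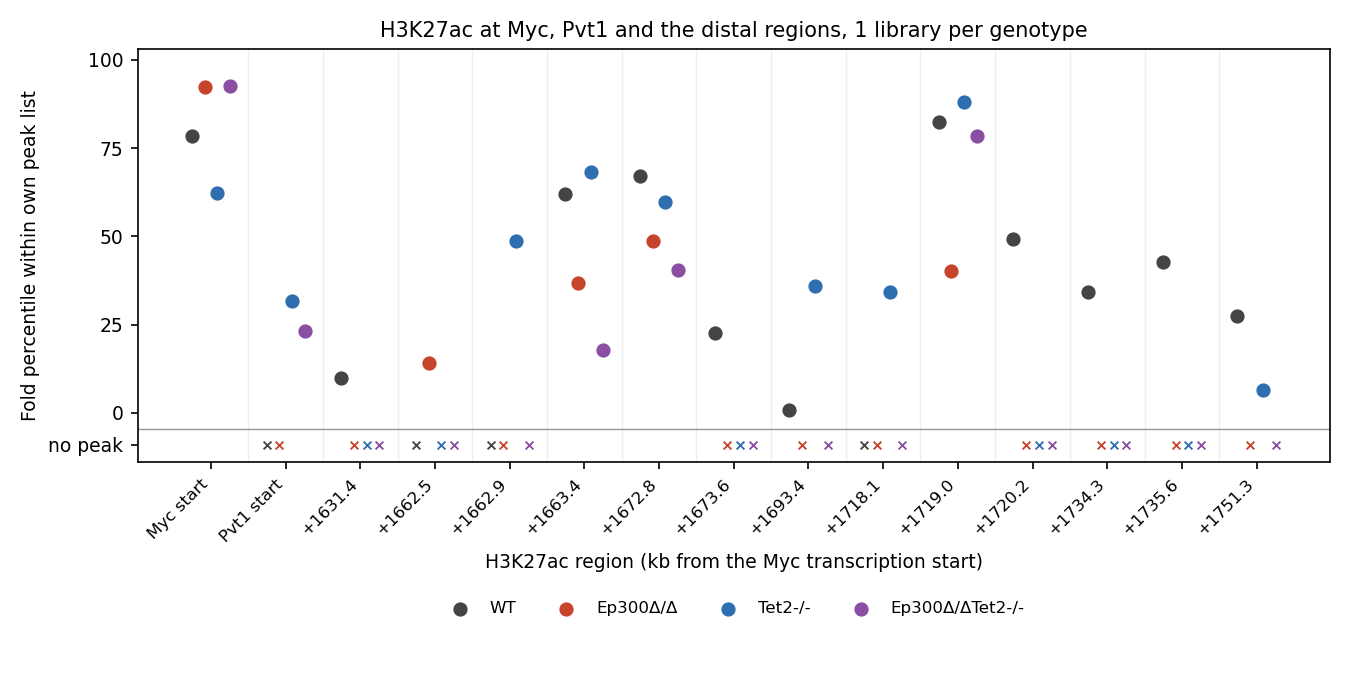
Percentile of the H3K27ac fold enrichment within each genotype's own list at the starts of Myc and Pvt1 and at the 13 distal regions; each dot is 1 library, and a cross marks a library with no peak. The Myc start is higher in both Ep300-deleted libraries (92.2 and 92.5) than in WT (78.6) and Tet2-/- (62.3), and the 3 shared distal regions are lower after Ep300 deletion on each background.

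The distal regions with H3K27ac in WT and in neither Ep300-deleted genotype ranked lower in the WT list than the 3 shared regions. Their WT percentiles were 49.4 at +1720.2, 42.6 at +1735.6, 34.3 at +1734.3, 27.3 at +1751.3, 22.6 at +1673.6, 9.79 at +1631.4, and 0.836 at +1693.4. Only +1693.4 and +1751.3 of these 7 were also listed in Tet2-/- cells, at percentiles 35.8 and 6.32. The 2 regions listed in Tet2-/- cells alone, +1662.9 and +1718.1, stood at percentiles 48.6 and 34.2 of that list, beside +1663.4 and +1719.0. In Ep300Δ/Δ cells 1 region was listed that no other genotype had, +1662.5, at percentile 14.0.

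From WT to Ep300Δ/Δ, 11 of the 16 merged H3K27ac regions of the window had no overlapping peak in Ep300Δ/Δ cells and are counted as lost (68.8%, exact Clopper-Pearson 95% interval 41.3 to 89.0, counting error only), against 39.7% of all H3K27ac regions of the genome. Outside promoters, taken as 3000 bp to both sides of any transcript start, 8 of 11 were lost, against 62.5% of all such regions. In the distal segment alone 7 of 10 were lost. From Tet2-/- to Ep300Δ/ΔTet2-/-, 8 of 13 regions of the window were lost (61.5%, 31.6 to 86.1), against 37.8% of the genome, and outside promoters 5 of 8 against 61.9%. In the distal segment 4 of 7 were lost. Of these shares of the window, only that from WT to Ep300Δ/Δ over all regions had an interval above the genome share. Outside promoters both intervals (39.0 to 94.0 and 24.5 to 91.5) included it. Loss also followed rank. At WT percentiles of 0 to 25 and 25 to 50, 6 of 7 and 5 of 5 regions of the window were lost, and at 50 to 75 and 75 to 100, 0 of 2 and 0 of 2. The genome shares in these 4 bins were 75.9%, 57.2%, 24.3%, and 1.58%. From Tet2-/- to Ep300Δ/ΔTet2-/-, in the same bins of the Tet2-/- list, 3 of 3, 4 of 5, 1 of 4, and 0 of 1 were lost. There the genome shares were 73.0%, 55.1%, 21.9%, and 1.96%.

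The lower counts in the Ep300-deleted lists held under a stricter threshold. With lists of equal size they remained only on the Tet2-null background, and there by only 1 peak in the window and 1 in the distal segment. At a -log10 q of 5 or more the window held 10, 5, 11, and 6 H3K27ac peaks in WT, Ep300Δ/Δ, Tet2-/-, and Ep300Δ/ΔTet2-/- cells, and the distal segment 7, 4, 6, and 3. When each H3K27ac list was cut to its strongest peaks, as many as the shortest list held, the window counts became 5 in WT, 6 in Ep300Δ/Δ, 8 in Tet2-/-, and 7 in Ep300Δ/ΔTet2-/- cells, so that WT no longer had the most. The distal counts became 4, 4, 4, and 3. Of the regions of the window, 1 of 5 was then lost from WT to Ep300Δ/Δ (20%) and 3 of 8 from Tet2-/- to Ep300Δ/ΔTet2-/- (37.5%), where the count was still lower. Counting a peak within 500 bp as shared, 9 of 16 were lost from WT to Ep300Δ/Δ (56.2%) and 5 of 13 on the Tet2-null background (38.5%). For H3K27ac too, genome shares lost were not computed with equal lists or this distance, so these shares have no genome value to stand against. The Myc start, +1663.4, +1672.8, and +1719.0 were still listed in all 4 genotypes.

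Few regions were gained. From WT to Ep300Δ/Δ, 2 of 7 H3K27ac regions of the window were gained (28.6%, 3.67 to 71.0), against 12.8% of the genome; at a -log10 q of 5 or more 0 of 4 were. From Tet2-/- to Ep300Δ/ΔTet2-/- 1 of 6 was gained (16.7%, 0.421 to 64.1), against 15.0%. The latter was at chr15:63895694-63896114 in an intron of Gsdmc4, a gasdermin family gene, at percentile 34.4 of the double-mutant list. H3K4me3 overlapped it in Ep300Δ/Δ, Tet2-/-, and Ep300Δ/ΔTet2-/- cells, at percentiles 26.3, 33.9, and 33.9, and was not listed there in WT cells.

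Between genotypes with and without Tet2, acetylated regions differed in both directions. From WT to Tet2-/-, 9 of 16 regions were lost (56.2%, 29.9 to 80.2) and 6 of 13 were gained (46.2%, 19.2 to 74.9), against 35.6% and 20.3% of the genome. From Ep300Δ/Δ to Ep300Δ/ΔTet2-/-, 3 of 7 were lost and 3 of 7 were gained (42.9% each, 9.90 to 81.6), against 31.2% and 18.5%. Each of these intervals included the genome share. With lists of equal size the share lost from WT to Tet2-/- was 1 of 5 (20%), and from Ep300Δ/Δ to Ep300Δ/ΔTet2-/- 1 of 5 was lost. At a -log10 q of 5 or more the latter was 0 of 4. Outside promoters, 6 of 11 regions were lost and 3 of 8 gained from WT to Tet2-/-, close to the 55.3% and 34.9% of the genome. From Ep300Δ/Δ to Ep300Δ/ΔTet2-/- 1 of 4 was lost and 1 of 4 gained outside promoters, against 51.6% and 37.8%. Of 8 acetylated regions in the Pvt1 segment, 5 were in 1 list, 3 were in 2 lists, and 0 were in more. The strongest was at chr15:62170017-62170439 in an intron, at percentile 51.0 in Tet2-/- and 0.749 in WT cells, where its q was over 0.05. Intronic peaks at chr15:62056891-62057139 (percentile 33.6, WT) and chr15:62158218-62159131 (percentile 33.3, Tet2-/-) were listed in a single genotype each.

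**Figure D4:**
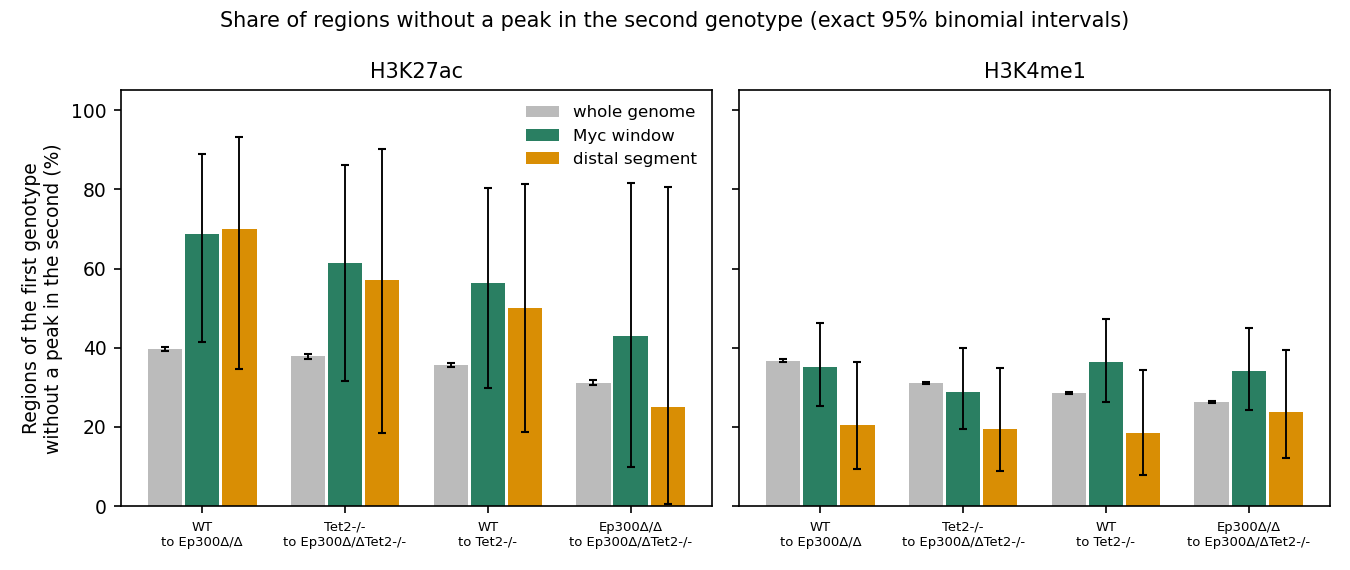
Share of regions of the first genotype that had no peak in the second, in percent, for H3K27ac and H3K4me1 in the whole genome, the Myc window, and the distal segment; bars are shares and error bars are exact 95% binomial intervals over regions, with 1 library per genotype. In the H3K27ac panel the window stands at 68.8% and 61.5% for the 2 Ep300 comparisons, and in the H3K4me1 panel the distal segment stands below the whole genome in all 4 comparisons, with an interval that includes the genome share in 3 of them.

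In the distal segment H3K4me1 was listed also where H3K27ac was not. All 13 acetylated distal regions overlapped an H3K4me1 peak in every genotype, those without H3K27ac in that genotype included, whereas 55.2% of all 35252 H3K27ac regions of the genome, and 67.6% of the 14280 outside promoters, had H3K4me1 in all 4 lists. At +1719.0 the H3K4me1 percentile was 95.6 in WT, 61.0 in Ep300Δ/Δ, 98.4 in Tet2-/-, and 94.6 in Ep300Δ/ΔTet2-/- cells, and Ep300Δ/Δ was the lowest for this mark too. At +1672.8 it was 94.8, 91.4, 91.3, and 93.1. At +1720.2, where H3K27ac was listed in WT cells only, it was 52.2, 39.4, 93.6, and 95.5. At +1735.6, also acetylated in WT cells only, it was 29.5, 91.9, 88.1, and 80.4. Among the 5 distal regions acetylated in WT cells only, WT had the lowest H3K4me1 percentile at +1735.6 and the highest at +1673.6, and lay between the other genotypes at the remaining 3.

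Over the whole window, all 8 intervals for H3K4me1 regions lost or gained included the share of the genome. From WT to Ep300Δ/Δ 31 of 88 regions were lost (35.2%, 25.3 to 46.1) and 29 of 86 gained (33.7%, 23.9 to 44.7), against 36.7% and 24.1% of the genome. From Tet2-/- to Ep300Δ/ΔTet2-/- 24 of 83 were lost (28.9%, 19.5 to 39.9) and 18 of 77 gained (23.4%, 14.5 to 34.4), against 31.1% and 23.4%. In the distal segment 8 of 39 (20.5%, 9.30 to 36.5) and 8 of 41 (19.5%, 8.82 to 34.9) were lost in these 2 comparisons. From WT to Tet2-/- 32 of 88 were lost and 28 of 84 gained, against 28.6% and 26.8%, and from Ep300Δ/Δ to Ep300Δ/ΔTet2-/- 30 of 88 were lost and 24 of 82 gained, against 26.2% and 29.5%. Shares lost in the window moved with the threshold and the overlap rule, in each comparison by over 1.5 times. With both lists held to a -log10 q of 5 or more, 27 of 50 (54%) were lost from WT to Ep300Δ/Δ and 33 of 62 (53.2%) from Tet2-/- to Ep300Δ/ΔTet2-/-. With only the regions of the first genotype held to it, 9 of 50 (18%) were lost from WT to Ep300Δ/Δ, 23.5% from WT to Tet2-/-, and 21.2% from Ep300Δ/Δ to Ep300Δ/ΔTet2-/-, and counting a peak within 500 bp as shared gave 22.7% from WT to Ep300Δ/Δ. The genome shares were not computed under these settings. Of 51 distal H3K4me1 regions 21 were in all 4 lists (41.2%), against 34.4% of the genome. Distal H3K4me1 covered 20.9 kb in WT, 22.2 kb in Ep300Δ/Δ, 28.1 kb in Tet2-/-, and 21.9 kb in Ep300Δ/ΔTet2-/- cells, the widest in Tet2-/-.

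In the Pvt1 segment H3K4me1 peaks were fewer without Tet2. It had 40 peaks in WT and 39 in Ep300Δ/Δ cells, against 29 in Tet2-/- and 27 in Ep300Δ/ΔTet2-/- cells, covering 21.4, 20.7, 14.9, and 12.4 kb. Of 56 merged H3K4me1 regions in the Pvt1 segment, 26 (46.4%) were listed only where Tet2 was intact and 3 (5.36%) only where it was absent, whereas over the genome the shares were 19.7% and 18.3%. Outside promoters the counts were 13 of 31 (41.9%) and 2 of 31 (6.45%), against 20.9% and 20.8%. From WT to Tet2-/- 20 of 40 regions were lost there (50%, 33.8 to 66.2), and from Ep300Δ/Δ to Ep300Δ/ΔTet2-/- 17 of 38 (44.7%, 28.6 to 61.7). Over all regions both intervals lay above the genome shares given for those comparisons. Outside promoters neither did: 11 of 22 were lost from WT to Tet2-/- (50%, 28.2 to 71.8), against 30% of the genome, and 6 of 21 from Ep300Δ/Δ to Ep300Δ/ΔTet2-/- (28.6%, 11.3 to 52.2), against 28.2%. With lists of equal size the counts were 33, 39, 25, and 24, in the same direction. At a -log10 q of 5 or more they were 21, 11, 18, and 7, so that Tet2-/- had more than Ep300Δ/Δ cells, though each genotype without Tet2 still had fewer than its counterpart with Tet2.

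**Figure D5:**
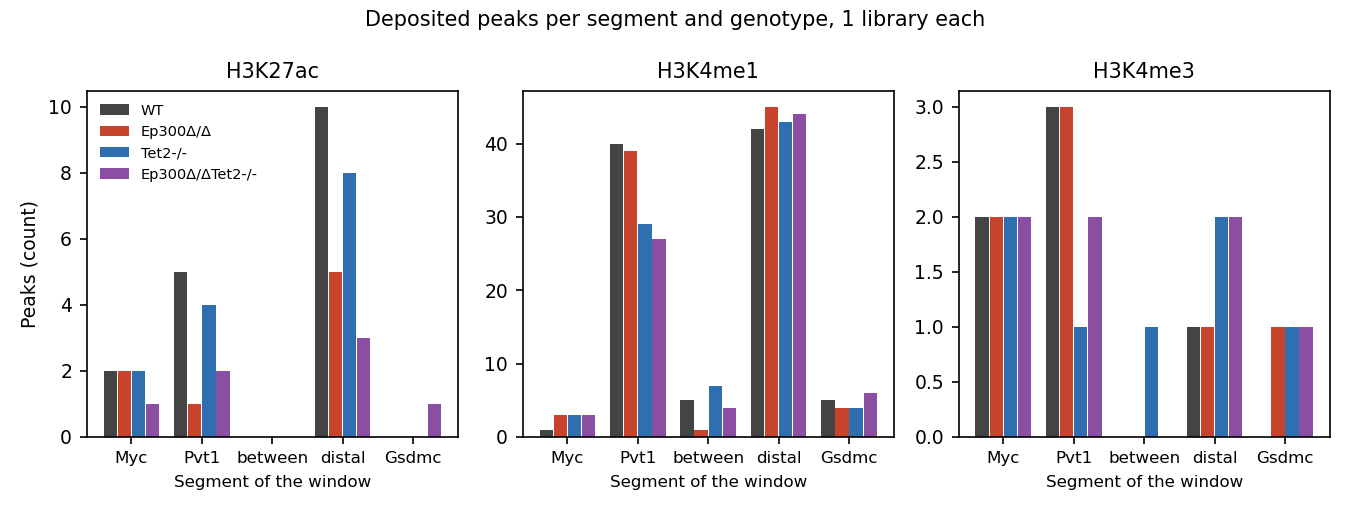
Number of peaks in each segment of the window by genotype, for H3K27ac, H3K4me1, and H3K4me3, with 1 library behind each bar and a separate vertical scale for each mark. Distal H3K27ac bars are 10, 5, 8, and 3, distal H3K4me1 bars lie between 42 and 45, and Pvt1 H3K4me1 bars are 40, 39, 29, and 27.

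Active enhancers, defined as H3K27ac peaks that overlap H3K4me1 of the same genotype and no promoter, numbered 10 in WT, 5 in Ep300Δ/Δ, 9 in Tet2-/-, and 3 in Ep300Δ/ΔTet2-/- cells over the window. With both marks held to a -log10 q of 5 or more, the counts were 3, 4, 8, and 3, so that WT no longer exceeded Ep300Δ/Δ. With the lists of each mark cut to equal size they were 4, 4, 5, and 3, and WT again did not exceed Ep300Δ/Δ. No count over the genome is given beside them, so they describe the window only. The distal segment was dense for its length. It held 7, 5, 7, and 3 H3K27ac peaks outside promoters, and 3.82%, 3.04%, 1.61%, and 4.77% of 10544 tiles of 250 kb of the genome held as many. For H3K4me1 it held 38, 41, 40, and 39, and between 0.797% and 2.12% of tiles held as many. The segment was placed to hold a known enhancer cluster, with earlier results of these data known, so these shares describe it and are not a test.

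H3K4me3 was also listed at a pair of distal sites inside the acetylated regions. At chr15:63704634-63704913, within +1719.0, it was at percentile 28.1 in WT, 33.0 in Tet2-/-, and 27 in Ep300Δ/ΔTet2-/- cells and was not listed in Ep300Δ/Δ cells, the library in which +1719.0 also ranked lowest for H3K27ac and H3K4me1. At chr15:63647811-63648703, which spans +1662.5 and +1662.9 and touches +1663.4, it was at percentile 2.02 in Ep300Δ/Δ, 24.0 in Tet2-/-, and 17.7 in Ep300Δ/ΔTet2-/- cells and was not listed in WT. An exon of Pvt1 (chr15:62098779-62099314) had H3K4me3 only in WT and Ep300Δ/Δ cells, at percentiles 3.53 and 22.6.

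Genes of the MYC network, which encode partners, antagonists, and cofactors of MYC, were examined at their own promoters. All 14 had promoter H3K4me3 in every genotype, and 11, 11, 11, and 11 had promoter H3K27ac in WT, Ep300Δ/Δ, Tet2-/-, and Ep300Δ/ΔTet2-/- cells. The shares of all protein-coding genes are those given for the progenitor list. For 9 of the 14 H3K27ac was listed in all 4, against 40.0% of 21951 protein-coding genes. They include Max, the obligate partner of MYC, with percentiles of 90.0, 83.2, 91.5, and 88.8, and Mnt, a MAX-binding repressor, with 96.9, 97.8, 96.6, and 98.6. Mycn, a paralog of Myc, had H3K27ac only in WT and Ep300Δ/ΔTet2-/- cells, at percentiles 39.8 and 36.5. Mycl, another paralog, had it only in Ep300Δ/Δ cells, at percentile 8.65. Zbtb17, which encodes the MYC partner MIZ1, had it only in Tet2-/- and Ep300Δ/ΔTet2-/- cells, at percentiles 43.1 and 16.1. Mlx lacked a listed peak in Ep300Δ/ΔTet2-/- cells, and Mlxipl in all 4.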

How the data were processed

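ChIP-Seq of 3 histone marks in Lin- cells of 4 genotypes was analysed from 12 peak lists, 1 library each. Chromatin input was 5 μg per precipitation, with 1 μg of antibody and a spike-in of 10 ng from Drosophila. The labels call the libraries single-end and the methods paired-end. The authors used cutadapt 1.15 for trimming, BWA 0.7.13 for alignment to mm10, and Picard for duplicates, and called narrow peaks with MACS2 2.1.1.20160309 against the H3 library of the genotype, keeping peaks shared by pseudo-replicates at a stated q of 0.05. The labels and the methods give different catalog numbers for the H3 antibody. No source used here says that the spike-in entered the peak lists.

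The deposited files give for each peak a score, a fold enrichment (a ratio over H3), a -log10 p-value, a -log10 q-value, and the offset of the summit. The authors' score and -log10 p-value were not used. The stated q does not hold for every peak: in the window, 3, 1, 0, and 0 H3K27ac peaks and 1, 8, 0, and 5 H3K4me1 peaks of WT, Ep300Δ/Δ, Tet2-/-, and Ep300Δ/ΔTet2-/- cells had a q over 0.05. Peak number moves with depth and yield, which the lists do not give.

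Myc, transcripts, and promoters (3000 bp to both sides of each transcript start) came from GENCODE M21 on GRCm38. Lists were merged in pairs, and a region counted as lost or gained if the other list had no peak overlapping it by at least 1 bp. A region's percentile is that of its highest peak among all peaks of that list. Peaks were placed in segments by their summit. Named were Myc, Pvt1, genes of the window with a peak, all distal H3K27ac regions, the regions at the starts of Myc and Pvt1, and the 5 other H3K27ac regions with the highest fold. The H3K4me1 values at single distal regions, the H3K4me3 sites, and the shares listed only with or without Ep300 or Tet2 were chosen after values were seen. The window, segments, and gene lists were chosen with earlier results of these data known. Sequences were shown for distal regions by highest percentile: up to 4 acetylated in all genotypes, up to 4 with WT but without Ep300-deleted peaks, and up to 2 absent from WT. Promoter sequences of Myc and Pvt1 are not shown.

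Intervals are exact Clopper-Pearson 95% intervals. The merging code was tested on simulated lists (20 of 20 counts recovered) and equaled bedtools 2.31.1 in 12 of 12 comparisons of the deposited lists. Alternatives were a -log10 q of at least 5, equal list sizes, other overlaps and distances, wider segment bounds, and narrower promoters. Python 3.11.15, numpy 2.4.6, pandas 2.3.3, scipy 1.17.1, and matplotlib 3.10.9 were used.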

Additional observations from a re-analysis of the deposited data

Results flagged for a closer look

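Several values moved in opposite directions for the same deletion on the 2 backgrounds. Each rests on 1 library per genotype, and none of these differences was tested. Covered H3K4me1 in the distal segment differed by 1.30 kb from WT to Ep300Δ/Δ and by -6.20 kb from Tet2-/- to Ep300Δ/ΔTet2-/- cells, but by -3.34 and -11.2 kb, the same direction, at a -log10 q of 5 or more. For loss of Tet2 it differed by 7.20 kb with Ep300 and by -0.305 kb without it, and at that threshold by 9.53 and 1.63 kb, again the same direction. Over the whole window it differed by 2.34 kb and -6.06 kb, and at that threshold still in opposite directions, by 5.70 and -1.78 kb. The number of distal H3K4me1 peaks differed by 1 and by -1 for loss of Tet2, and by 12 and 3 at that threshold.

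For H3K27ac, loss of Tet2 came with -1 peak in the Pvt1 segment where Ep300 was intact and with 1 more where it was deleted, and with -0.295 kb and 0.522 kb of covered sequence in the window. Neither kept opposite directions without the 4 H3K27ac peaks with a q over 0.05, where the peaks differed by 2 and 2 and the covered sequence by 0.789 and 0.744 kb. At the Myc start, the H3K27ac percentile differed by -16.3 points from WT to Tet2-/- and by 0.287 from Ep300Δ/Δ to Ep300Δ/ΔTet2-/- cells. At the region 1663.4 kb downstream it differed by 6.17 and by -19.0 points.

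For H3K4me3 at the Myc start, the percentile differed by -13.3 points after Ep300 deletion with Tet2 and by 3.99 without it. At the Pvt1 start the differences were -4.74 and 10.4 points for Ep300 deletion, and -13.0 and 2.13 points for loss of Tet2. By rank from the top, the peak at the Pvt1 start stood further down in both comparisons for loss of Tet2, by 3959.5 and by 50 ranks.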

How the results depend on the processing

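Counts and shares of the window were recomputed under alternatives, giving 164 values for 40 results, of which 127 stayed within 1.5 times the count or within the interval of the share as reported. Dropping peaks with a q over 0.05, an alternative chosen after seeing the data, changed 2 of 40 by more than that, the H3K27ac peaks of the Pvt1 segment in WT, which were then 2, and in Ep300Δ/Δ cells, then 0. The wider segment and the narrower promoters, run for 4 results each, and an overlap of 50% of the shorter peak, run for 12, changed none of those. With a -log10 q of at least 5, H3K27ac peaks were 10 in WT and 5 in Ep300Δ/Δ cells, active enhancers in WT were 3, the H3K27ac share lost from Ep300Δ/Δ to Ep300Δ/ΔTet2-/- and the share gained from WT to Ep300Δ/Δ were 0, and the H3K4me1 shares lost were 54.0% from WT to Ep300Δ/Δ and 53.2% from Tet2-/- to Ep300Δ/ΔTet2-/-. Counts at this threshold also added after seeing the data were, in WT, Ep300Δ/Δ, Tet2-/-, and Ep300Δ/ΔTet2-/- cells, 21, 11, 18, and 7 H3K4me1 peaks in Pvt1, 26, 21, 38, and 24 in the distal segment, and 1, 0, 3, and 1 H3K27ac peaks in Pvt1. With lists of equal size, H3K27ac peaks were 5 in WT and 8 in Tet2-/- cells, distal peaks 4 and 4, Pvt1 peaks 0 and 2 (0 in Ep300Δ/Δ cells), active enhancers 4 and 5, and the shares lost from WT to Ep300Δ/Δ and from WT to Tet2-/- were both 20%; fewer peaks enter each list by construction. When the list a region came from was held to a -log10 q of at least 5 and the other list was not, the H3K27ac share lost from Ep300Δ/Δ to Ep300Δ/ΔTet2-/- and the share gained from WT to Ep300Δ/Δ were 0, and H3K4me1 shares lost were 18.0%, 23.5%, and 21.2% from WT to Ep300Δ/Δ, from WT to Tet2-/-, and from Ep300Δ/Δ to Ep300Δ/ΔTet2-/-. Counting a peak within 500 bp as shared gave H3K4me1 shares lost of 22.7% and 26.1% from WT to Ep300Δ/Δ and to Tet2-/-. Ranks counted from the top of each list, also chosen after seeing the data, kept the direction of each H3K27ac difference after Ep300 deletion given for the Myc start and the 3 shared distal regions. For the changes at stricter thresholds and wider distances the cause was not tested. No paired analysis was possible because each genotype and mark had 1 library. The unknown depth of the libraries limits every count of peaks.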
